A study of Homo sapiens with 8 samples.

Results

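Out of 8 RNA-seq libraries of a stepwise endoderm differentiation, 4 were compared here by their stage labels, over every gene row: 2 of pharyngeal foregut endoderm (hPFE) and 2 of anterior foregut endoderm (hAFE), the stage that precedes it in the culture. All of the libraries came from H1, an established line of human embryonic stem cells, so every value describes a single genetic background. The other 4 libraries, of undifferentiated cells (hESC) and definitive endoderm (hDE), are titled as re-analysed data; they served to estimate the spread between libraries and are given as reference levels. No genetic change is named for any group, and the agents and days of culture are not stated in the sources used here. Nothing in the labels tells whether the replicates of a stage were grown separately. The p-values therefore reflect only how far these particular libraries vary, and that variation may be technical.

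The anterior foregut is the front end of the embryonic gut tube and expresses SOX2 together with the forkhead factors FOXA1 and FOXA2. Pharyngeal endoderm is the part of it that pouches out towards the ectoderm and gives rise to the thymus, the parathyroid and the thyroid epithelium. PAX1, PAX9 and TBX1 are transcription factors known for their roles in the pouches, FOXE1 acts in the thyroid bud, SHH is a ligand secreted by foregut epithelium, and retinoic acid and the HOX genes help to set position along the axis.

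The libraries held 13737594 and 12687161 expected counts for hAFE, and 15569507 and 12893496 for hPFE. The mitochondrial ribosomal RNA share was 11.2% and 12.9% in the hAFE libraries and 14.3% and 18.4% in the hPFE libraries. The part of that share in the results was not tested. Levels are in CPM, read counts normalised to library size with edgeR's TMM scaling, which serve to compare 1 gene across libraries but not genes with each other, and always in the order replicate 1, replicate 2.

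The 2 libraries of each foregut stage stood apart from each other more than those of the earlier stages did. Over 9610 genes with a mean of at least 10 CPM in the 4 libraries, the SD of the log2 difference between replicates was 0.572 in hAFE and 0.531 in hPFE, against 0.287 in hESC and 0.25 in hDE. Distances between replicates were taken on CPM + 0.5, which narrows them for genes near 0. More than 2 fold lay between the replicates of 528 of these genes in hAFE (5.49%) and 451 in hPFE (4.69%), against 37 in hESC and 34 in hDE. The correlation of log2 CPM across genes was 0.959 within hAFE and 0.959 within hPFE, and 0.918 to 0.935 between libraries of different stages. Results on genes whose replicates were close are therefore led with here, and replicate values stand before each fold change. Where a stage had only a few counts, its libraries may be given as a sum.

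The labels were set against marker genes. EPCAM, an epithelial adhesion protein, was at 165.9 and 166.7 CPM in hAFE and 170.5 and 201.0 CPM in hPFE. SOX2 was at 158.2 and 57.2 CPM in hAFE and 120.3 and 95.9 CPM in hPFE. FOXA1 was at 78.6 and 26.7 CPM in hAFE and 53.7 and 51.1 CPM in hPFE, and FOXA2 at 41.2 and 17.7 CPM against 22.9 and 12.8 CPM. These foregut genes were present in all 4 libraries, and the SOX2, FOXA1 and FOXA2 values of the stages overlapped. SOX17, the endoderm factor at 126.5 and 148.5 CPM in hDE, was at 0.132 and 0.146 CPM in hAFE and 0.182 and 0.433 CPM in hPFE. The pluripotency factors POU5F1 and NANOG did not exceed 0.439 CPM in any of the 4 libraries.

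Some markers of other cell types were at or near 0, and others, such as CGA, MEOX1 and HAND2, were not in every library. Those named were chosen after their values were seen. NEUROD1 of neurons and FOXD3 and TFAP2B of the neural crest had 0 counts in all 4 libraries, and SOX10, TBX6, TBX5 and PECAM1 stayed at or below 0.607 CPM. PAX6 of neural cells ranged from 0.366 to 2.37 CPM, CDH5 of endothelium reached 2.84 CPM in the first hAFE library, and HAND1 of lateral mesoderm was at 1.15 CPM in the first hPFE library and 0 in the other 3. The mesenchymal factors TWIST1 and PRRX1 were highest in the first hPFE library, at 1.4 and 7.59 CPM, and did not exceed 0.219 CPM in the other 3. Among trophoblast markers, GATA3 ranged from 2.71 to 5.04 CPM and ELF5 from 5.22 to 10.4 CPM, while CGA, a hormone subunit, was at 4.56 and 69.0 CPM in hAFE and 0.0607 and 2.02 CPM in hPFE. MEOX1, a paraxial mesoderm factor, was at 20.6 and 0.219 CPM in hAFE and 10.4 and 13.2 CPM in hPFE. HAND2, of lateral mesoderm and neural crest, was at 0 and 0.146 CPM in hAFE and 38.8 and 0.794 CPM in hPFE. Of the neural list, 11 members had a mean of 1 CPM or more and the whole list summed to 530.1 and 355.1 CPM in hAFE and 496.5 and 305.3 CPM in hPFE. NES and TUBB3, cytoskeletal genes that are not limited to neurons, made up most of the hAFE sums. MAP2 was the 1 member of 12 tested that was called higher, 8.33% against 4.77% over all genes tested. It was at 55.6 and 56.9 CPM in hAFE and 167.3 and 107.0 CPM in hPFE (edgeR adjusted p = 0.0441). The trophoblast and amnion list had 8 members at 1 CPM or more and 0 of 10 tested called; it summed to 70.4 and 170.6 CPM in hAFE and 140.8 and 106.2 CPM in hPFE. The part of such cells in the results was not tested.

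**Figure D1:**
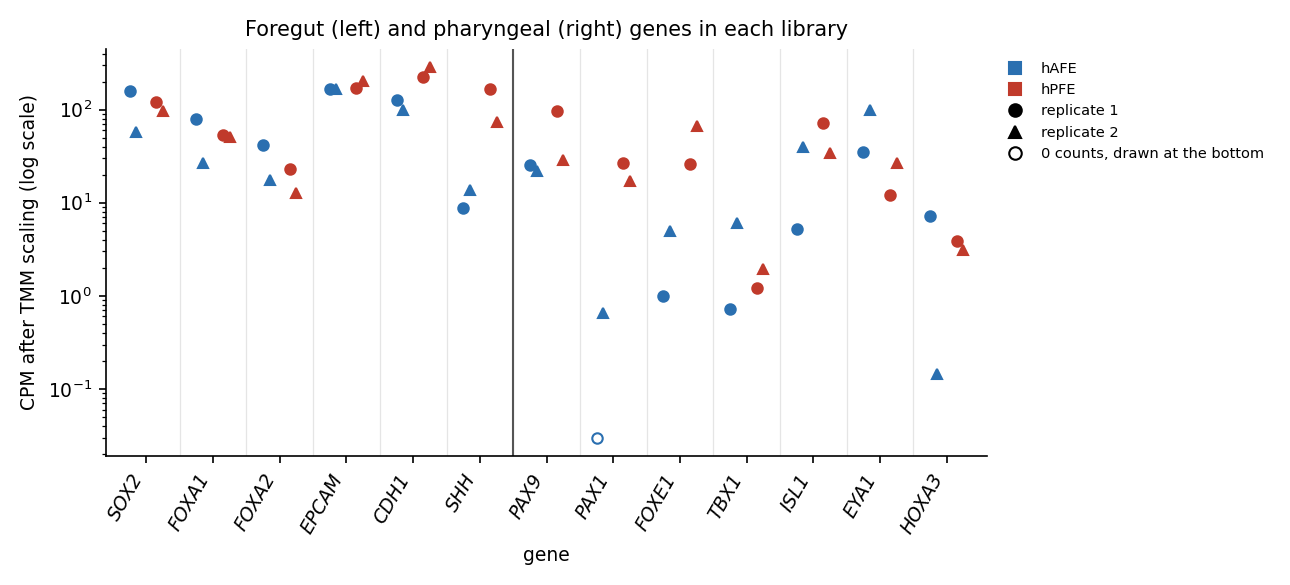
CPM (log axis) of 13 foregut and pharyngeal genes in the 2 hAFE and 2 hPFE libraries, with one point per library. PAX1 and FOXE1 lie higher in both hPFE libraries, SOX2 and FOXA1 overlap between the stages, and HOXA3 is spread from 0.146 to 7.14 CPM within hAFE.

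Of 17446 genes tested, 1306 differed between hPFE and hAFE by edgeR's quasi-likelihood test over all 8 libraries at an adjusted p under 0.05. They were 833 genes higher in hPFE, which is 4.77% of those tested, and 473 lower, which is 2.71%. The libraries of the stages did not overlap for any of the 1306. By comparison, both hPFE libraries lay above both hAFE libraries in 23.1% of all genes tested and below both in 26.6%. Of the 1306 genes, 907 differed by at least 2 fold, 684 of them upward and 223 downward, and in 1058 the replicates of both stages lay within 2 fold on CPM + 0.5.

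This fit shares one estimate of spread over 4 stages that do not vary alike. The hESC and hDE replicates were closer than the foregut ones, so its p-values may be too low for this comparison. A second fit, limma's voom with stage weights, which gave the foregut stages less weight, called 360 genes higher (2.06%) and 87 lower (0.499%). Of its 447 calls, 443 were also called by edgeR over 8 libraries. edgeR on the 4 foregut libraries alone, with 2 residual degrees of freedom, called 46 genes higher (0.291%) and 6 lower (0.038%) of 15783, and 51 of these 52 were among the 1306. The number of calls over 8 libraries depended on the reference stages: it was 479 without hESC replicate 1, 490 without hESC replicate 2, 535 without hDE replicate 1 and 536 without hDE replicate 2. The share of calls that were higher in hPFE was 63.8% with TMM scaling and 89.4% with limma on log2(TPM + 1), where the median log2 difference of all genes was 0.14 rather than -0.03.

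Within the pharyngeal genes, 3 of 23 tested members were called higher (13%, against 4.77% over all genes) and 0 lower. The median log2 difference was -0.11. The rises were PAX1, FOXE1 and HEY1, and the other pouch landmarks did not pass. PAX1 was at 0 and 0.658 CPM in hAFE and at 26.5 and 17.3 CPM in hPFE. It was close to absent from both hAFE libraries, with 9 counts in all against 676, and the log2 fold change was 6.07 ± 0.93 (SE, edgeR adjusted p = 0.0161; voom adjusted p = 0.0188). FOXE1 was at 0.991 and 4.97 CPM in hAFE and at 26.2 and 67.0 CPM in hPFE. Both hPFE libraries lay above both hAFE libraries, though the replicates of each stage were far apart; the log2 fold change was 3.97 ± 0.74 (SE, edgeR adjusted p = 0.0224). The FOXE1 call did not hold without any single hESC or hDE library, where the edgeR adjusted p was 0.0549 and 0.0548 (hESC replicates 1 and 2) and 0.0551 and 0.0544 (hDE replicates 1 and 2), or without hPFE replicate 2, where it was 0.0532. HEY1, a Notch target, was at 2.97 and 1.1 CPM in hAFE and at 21.9 and 7.29 CPM in hPFE (edgeR adjusted p = 0.0355; voom adjusted p = 0.0734). The count of 3 was 0 in the 4-library fit, 1 without any single hESC or hDE library and 5 without hAFE replicate 2; without hAFE replicate 1 it was 4, and 6 members were called lower.

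PAX9, the factor most used to name this tissue, was at 25.4 and 21.8 CPM in hAFE and at 95.7 and 28.6 CPM in hPFE. One hPFE library was high and the other close to the hAFE level, and the difference did not pass (log2 difference 1.40 ± 0.56, edgeR adjusted p = 0.16). Without hPFE replicate 2 it was 2.01, with an edgeR adjusted p of 0.0285, and without hPFE replicate 1 it was 0.28. TBX1 was low throughout, at 0.727 and 6.0 CPM in hAFE and 1.21 and 1.95 CPM in hPFE (edgeR adjusted p = 0.516). ISL1 was at 5.22 and 39.8 CPM in hAFE and 71.1 and 34.3 CPM in hPFE, so the stages overlapped.

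EYA1, a transcriptional coactivator of pouch and placode development, was at 34.6 and 99.5 CPM in hAFE and 12.2 and 26.5 CPM in hPFE. Both hPFE values were the lower ones, and the difference did not pass (edgeR adjusted p = 0.0714), though it did without hAFE replicate 1 (edgeR adjusted p = 0.0106). The pouch genes RIPPLY3, at 22.3 and 16.2 CPM in hAFE and 39.8 and 6.93 CPM in hPFE, and FGF8, at most 1.9 CPM, did not pass either. NKX2-1, the thyroid and lung factor, did not exceed 0.728 CPM and was not tested.

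No anterior HOX gene differed between the stages beyond the spread within hAFE. Of 10 tested members of that list, 0 were called higher or lower by edgeR over 8 libraries, by voom, by DESeq2 or by the 4-library fit, and at an unadjusted p under 0.05 edgeR had 0 higher and 1 lower. Without hAFE replicate 1, 3 members were called higher, and without hAFE replicate 2, 3 were called lower, so the direction followed which hAFE library was kept. HOXB3 was at 9.58 and 0.512 CPM in hAFE and at 24.6 and 8.59 CPM in hPFE. The hAFE libraries differed by more than the stages did. HOXB1 was at 11.9 and 0.146 CPM in hAFE, HOXA3 at 7.14 and 0.146 CPM, and HOTAIRM1, a noncoding transcript at the HOXA cluster, at 55.5 and 3.73 CPM. In hPFE, HOXA3 was at 3.89 and 3.1 CPM and HOTAIRM1 at 11.7 and 10.8 CPM, between the hAFE values.

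Other genes were high in the second hAFE library instead; these and the HOX genes other than HOXA3 were chosen after their values were seen. OTX2, a head-region factor, was at 17.0 and 332.6 CPM in hAFE and 6.19 and 30.2 CPM in hPFE. CYP26A1, the enzyme that degrades retinoic acid, was at 8.13 and 414.2 CPM in hAFE and 7.83 and 34.6 CPM in hPFE. NKX2-3 was at 0.264 and 22.2 CPM in hAFE and at most 0.722 CPM in hPFE. The first hAFE library thus held more HOX RNA and the second more OTX2 and CYP26A1 RNA, and the hPFE libraries lay mostly between or below them. For all of these genes the difference between the stages was not past the threshold.

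**Figure D2:**
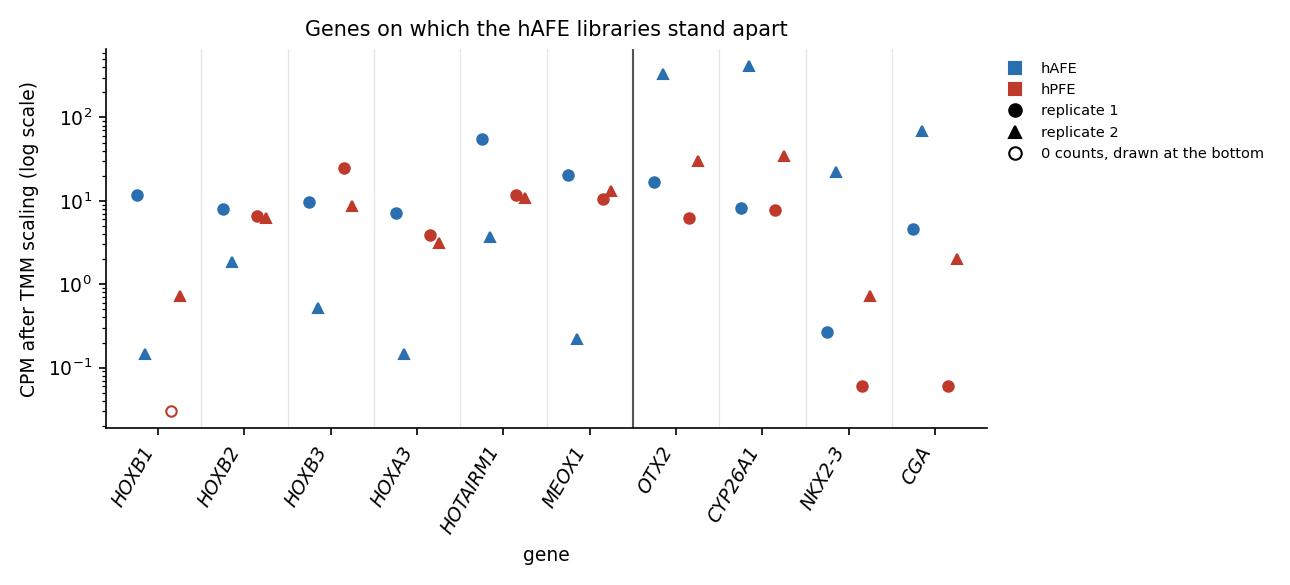
CPM (log axis) of 10 genes in the hAFE and hPFE libraries, one point per library. The genes left of the dark line are higher in hAFE replicate 1 (HOTAIRM1 55.5 against 3.73 CPM) and those right of it in hAFE replicate 2 (OTX2 332.6 against 17.0 CPM).

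In the retinoic acid pathway 3 of 21 tested members were called higher and 0 lower, with a median of -0.30. That is 14.3% higher, against 4.77% over all genes, and the voom fit and the 4-library fit called 0. The count of 3 was 1 without hAFE replicate 2, hPFE replicate 1 or any single hESC or hDE library, and 3 members were called lower without hAFE replicate 2 and 2 without hAFE replicate 1. ALDH1A3, which makes retinoic acid, was at 0.595 and 0.439 CPM in hAFE and at 27.0 and 9.74 CPM in hPFE (log2 fold change 5.13 ± 0.64, edgeR adjusted p = 0.00631; voom adjusted p = 0.054). The receptor RARG was at 1.78 and 1.97 CPM in hAFE and 5.83 and 3.46 CPM in hPFE (edgeR adjusted p = 0.043). RXRG had 1 count in the hAFE libraries and 71 in hPFE, a ratio of 67.4 with a 95% counting interval of 11.7 to 2701.0. Such intervals, here and below, pool the libraries of a stage and leave out the spread between them.

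The hedgehog ligand SHH was at 8.72 and 13.7 CPM in hAFE and at 166.9 and 72.7 CPM in hPFE. Both hPFE libraries were above both hAFE libraries, and SHH rose by 3.42 ± 0.43 on the log2 scale (SE, edgeR adjusted p = 0.0062; voom adjusted p = 0.00914; adjusted p = 0.0767 in the 4-library edgeR fit). GLI1, a transcription factor that hedgehog signalling induces, was at 7.93 and 5.63 CPM in hAFE and 25.9 and 17.5 CPM in hPFE (log2 fold change 1.67 ± 0.34, edgeR adjusted p = 0.0282; voom adjusted p = 0.0427). PTCH1, the receptor and also a target, was at 71.2 and 106.2 CPM against 122.3 and 114.5 CPM and did not pass (edgeR adjusted p = 0.371). SMO, the transducer, was at 112.7 and 109.3 CPM against 93.2 and 67.3 CPM and did not pass. Of 12 tested pathway members, SHH and GLI1 were the 2 called higher (16.7%, against 4.77% over all genes), and 0 were called lower. The 4-library fit called 0, and 1 was called higher without either hESC library, hAFE replicate 2 or hPFE replicate 1; without hAFE replicate 1 or hPFE replicate 1, 1 was called lower. SHH was also the 1 gene called among 15 tested of the anterior foregut list, a share of 6.67% that is near the 4.77% over all genes. In that list 3 were called higher and 3 lower without hAFE replicate 1, 3 higher and 1 lower without hAFE replicate 2, and 0 in the 4-library fit.

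Several ligands, inhibitors and targets of TGF beta and activin were higher in hPFE. Of 19 tested members, 6 were called higher (31.6%) and 1 lower (5.26%), against 4.77% and 2.71% over all genes. The median was 1.46, and the voom fit called 4 higher and the 4-library fit 0. Among ligands, INHBA, the subunit of activin A, was at 4.56 and 0.658 CPM in hAFE and 43.3 and 36.2 CPM in hPFE (edgeR adjusted p = 0.0182; voom adjusted p = 0.014). TGFB1 was at 0.463 and 0.731 CPM in hAFE and 8.13 and 4.76 CPM in hPFE (log2 fold change 3.43 ± 0.47, edgeR adjusted p = 0.00796). SKIL, a negative regulator of SMAD factors, was at 62.2 and 76.0 CPM in hAFE and 289.4 and 528.2 CPM in hPFE (edgeR adjusted p = 0.00397). Of the receptors, ACVR2B fell slightly, from 235.6 and 270.6 CPM to 174.5 and 156.9 CPM (edgeR adjusted p = 0.0355; voom adjusted p = 0.0866), and TGFBR1, at 213.8 and 285.9 CPM against 206.8 and 231.8 CPM, did not pass. LEFTY2, a nodal inhibitor called higher, can share reads with its close copy LEFTY1 and is uncertain.

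In the BMP pathway 5 of 22 tested members were called higher (22.7%, against 4.77% over all genes) and 0 lower, with a median of 1.03. NOG, a secreted BMP antagonist, was at 0.33 and 0.512 CPM in hAFE and 12 and 8.01 CPM in hPFE, and rose by 4.55 ± 0.52 on the log2 scale (edgeR adjusted p = 0.00426, and 0.0499 in the 4-library fit). The ligand BMP5 was at 1.06 and 2.49 CPM in hAFE and 17.0 and 11.2 CPM in hPFE (edgeR adjusted p = 0.019). The inhibitory SMAD7 was at 7.33 and 11 CPM in hAFE and 44.2 and 28.9 CPM in hPFE (log2 fold change 2.00 ± 0.28, edgeR adjusted p = 0.00888). The ligand, the antagonist and the inhibitory SMAD were thus all among the rises. The count was 3 without hDE replicate 1, and 8 without hAFE replicate 2 or without hPFE replicate 2.

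For Notch, 5 of 19 tested members were called higher (26.3%) and 1 lower (5.26%), against 4.77% and 2.71% over all genes. The median was 0.72, and the voom fit called 0. JAG1, a ligand, was at 36.4 and 59.4 CPM in hAFE and 290.4 and 135.9 CPM in hPFE (edgeR adjusted p = 0.0408; voom adjusted p = 0.052). DLL1, another ligand, went the other way, from 13.1 and 8.56 CPM to 1.76 and 1.15 CPM, and fell by 2.88 ± 0.44 on the log2 scale (edgeR adjusted p = 0.0123; voom adjusted p = 0.0523). NOTCH1, at 4.43 and 8.63 CPM in hAFE and 25.6 and 17.4 CPM in hPFE, and NOTCH3, at 97.3 and 97.8 CPM against 202.9 and 143.0 CPM, were called higher by edgeR at adjusted p of 0.0348 and 0.0415. The 5 calls were not stable: 0 remained in the fits without hESC replicate 1, hESC replicate 2 or hPFE replicate 1, 1 without hDE replicate 1, hDE replicate 2 or hAFE replicate 1, and 2 without hAFE replicate 2.

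Of 29 tested WNT members, 3 were called higher and 1 lower, with a median of 0.47, and 5 were called higher without hAFE replicate 2 or hPFE replicate 2. The 3 higher calls are 10.3% of the members tested, against 4.77% over all genes. The 1 lower call is a share near that over all genes. LGR5, a receptor that enhances WNT signalling and marks gut stem cells, had 1 count in hAFE and was at 7.77 and 7.22 CPM in hPFE, a ratio of 216.5 with a 95% counting interval of 38.5 to 8590.0. LGR5 was called in every one of the 19 alternatives tried. SFRP1, a secreted WNT antagonist, was at 216.2 and 153.1 CPM in hAFE and 68.1 and 72.9 CPM in hPFE, and fell by 1.39 ± 0.19 on the log2 scale (edgeR adjusted p = 0.00754; voom adjusted p = 0.0201). Among FGF ligands 2 of 10 tested members were called higher (20%, against 4.77% over all genes). FGF19 was at 0.264 and 0.512 CPM against 2.37 and 2.45 CPM (edgeR adjusted p = 0.0158). FGF11 was at 1.78 and 2.63 CPM against 9.96 and 8.51 CPM (edgeR adjusted p = 0.0133). The FGF ligand count was 1 without hESC replicate 2, and 2 ligands were called lower without hAFE replicate 1. Of 16 tested receptors and ERK feedback genes 1 was called higher and 1 lower, 6.25% each, against 4.77% and 2.71% over all genes. The one called higher was ETV1, at 14.4 and 15.5 CPM against 58.8 and 27.1 CPM (edgeR adjusted p = 0.031, voom adjusted p = 0.0638). No member was called higher without hAFE replicate 1 or any single hESC or hDE library, 2 were without hPFE replicate 2, and without hAFE replicate 2 there were 5 higher and 3 lower. The one called lower, the receptor FGFR1, was at 199.9 and 188.7 CPM in hAFE and 84.7 and 49.1 CPM in hPFE, and fell by 1.54 ± 0.24 on the log2 scale (edgeR adjusted p = 0.0123; voom adjusted p = 0.014). DUSP6, a feedback inhibitor of ERK, was at 197.5 and 91.0 CPM against 95 and 108.4 CPM, so the stages overlapped.

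Extracellular matrix genes were higher in hPFE, from fibronectin to the fibrillar collagens. Of 18 tested members of the interstitial matrix and mesenchyme list, 12 were called higher in hPFE (66.7%, against 4.77% over all genes) and 0 lower. The median log2 difference was 3.05, against -0.03 over all genes. The voom fit called 8 of them higher and the 4-library fit 4. Both hPFE libraries lay above both hAFE libraries for 16 of 18, against 23.1% of all genes. FN1, fibronectin, at chromosome 2, 215360440 to 215436172 on the minus strand of hg38, was at 278.3 and 365.8 CPM in hAFE and at 5743.0 and 11643.0 CPM in hPFE. Both hPFE libraries were far above both hAFE libraries, and the log2 fold change was 4.75 ± 0.36 (SE, edgeR adjusted p = 0.00134; voom adjusted p = 0.000426; 4-library edgeR adjusted p = 0.0446). FN1 was called in all 19 alternatives. The list summed to 852.2 and 747.5 CPM in hAFE and 10244.0 and 14052.0 CPM in hPFE, and FN1 made up most of the hPFE sums.

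Several fibrillar and microfibril genes were close between replicates; these were chosen after their values were seen. COL1A1, a chain of type I collagen, was at 4.76 and 6.58 CPM in hAFE and 84.7 and 62.9 CPM in hPFE (log2 fold change 3.70 ± 0.24, edgeR adjusted p = 0.000857). COL5A1 was at 15.9 and 8.99 CPM in hAFE and 83.8 and 87.2 CPM in hPFE, and FBN2, a fibrillin, at 69.4 and 43.9 CPM against 553.0 and 574.6 CPM. SPARC, a collagen-binding glycoprotein, was at 133.8 and 117.4 CPM in hAFE and 523.7 and 505.3 CPM in hPFE. COL1A1, FBN2 and SPARC, like FN1, were also called by edgeR on the 4 libraries alone.

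Other matrix genes were far apart between the hPFE libraries. COL3A1 was at 3.44 and 7.24 CPM in hAFE and at 1232.0 and 29.7 CPM in hPFE, and COL5A2 at 7.93 and 9.65 CPM against 307.8 and 22.3 CPM. LUM, lumican, was higher in the other hPFE library, at 0.33 and 0.0731 CPM in hAFE and 11.4 and 87.4 CPM in hPFE. POSTN, periostin, had 2 counts in hAFE and was at 16.6 and 4.11 CPM in hPFE, a ratio of 157.2 with a 95% counting interval of 43.2 to 1303.0. COL3A1, COL5A2, LUM and POSTN were called by edgeR over 8 libraries and by neither the voom fit nor the 4-library fit. COL6A3, at 0.529 and 0.804 CPM in hAFE and 75.5 and 1.44 CPM in hPFE, and COL6A1, at 22.6 and 19.6 CPM against 43.9 and 22.7 CPM, did not pass.

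The first hPFE library, in which COL3A1 and COL5A2 were high, was also the one with PRRX1 at 7.59, TWIST1 at 1.4 and HAND2 at 38.8 CPM. In the second hPFE library PRRX1 was at 0.216, TWIST1 at 0.144 and HAND2 at 0.794 CPM, while FN1, COL1A1, FBN2 and SPARC were high in that library too. The cardiac and lateral mesoderm list had 0 of 11 tested members called and summed to 213.7 and 194.7 CPM in hAFE and 157.4 and 54.1 CPM in hPFE. The neural crest list had 2 of 10 called higher, SNAI2 and ETS1, and summed to 104.2 and 104.1 CPM against 125.5 and 151.4 CPM. The paraxial mesoderm list had 1 of 5, PAX1, and summed to 38.4 and 50 CPM against 73.9 and 60 CPM. Both shares are 20%, against 4.77% over all genes, in lists of few members. In each of these 2 lists the voom fit called 1 higher and the 4-library fit 0. The part of other cell types in the matrix result was not tested. In RNA from whole cultures, fewer cells of a type and less RNA per cell cannot be told apart, for this and every other gene here.

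**Figure D3:**
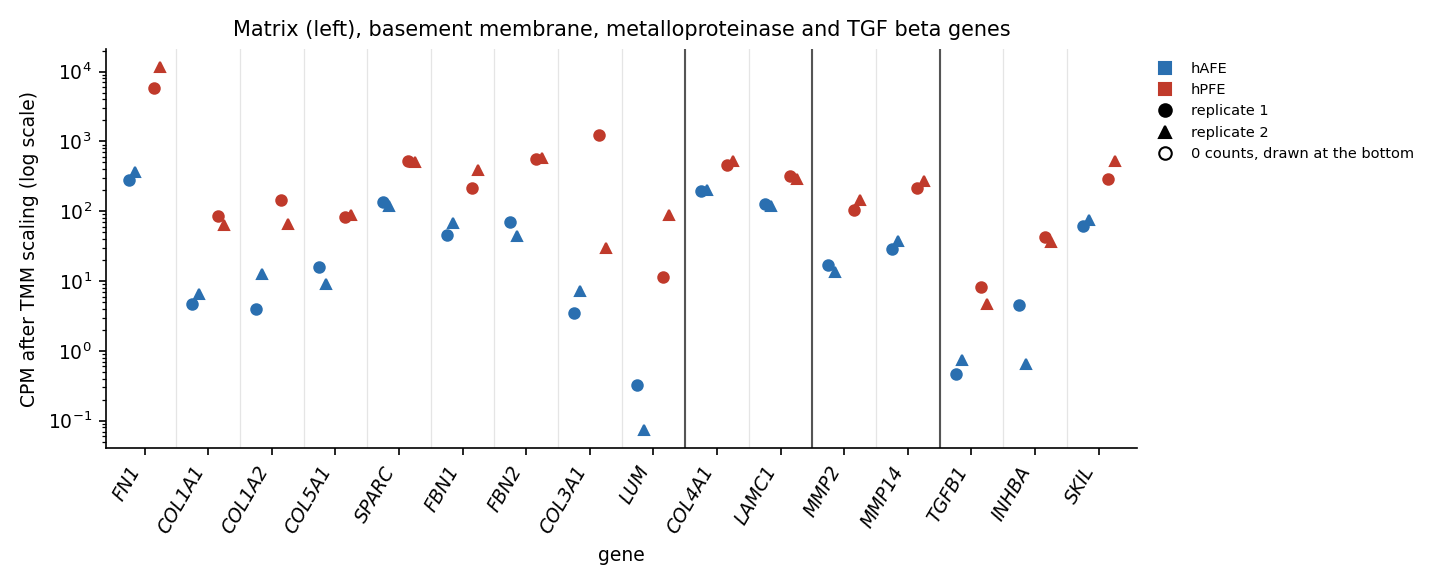
CPM (log axis) of 16 matrix, basement membrane, metalloproteinase and TGF beta genes, one point per library. The 16 were selected, and all lie higher in both hPFE libraries. Of all members tested, this held for 16 of 18 matrix, 10 of 19 basement membrane and 12 of 19 TGF beta genes. COL3A1 (1232.0 and 29.7 CPM) and LUM (11.4 and 87.4 CPM) are far apart between the hPFE replicates, FBN2 (553.0 and 574.6 CPM) is not.

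In the basement membrane list 5 of 19 tested members were called higher (26.3%, against 4.77% over all genes) and 0 lower. The median was 0.64, and the voom fit called 4 higher and the 4-library fit 1. COL4A1 was at 197.1 and 199.7 CPM in hAFE and 462.0 and 529.2 CPM in hPFE, and LAMC1 at 127.1 and 118.6 CPM against 318.6 and 287.5 CPM (edgeR adjusted p = 0.00426 and 0.00507). LAMA4 was at 1.32 and 0.512 CPM in hAFE and 10.9 and 23.3 CPM in hPFE. LAMB1, at 273.0 and 364.9 CPM against 497.5 and 329.7 CPM, overlapped between the stages.

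The metalloproteinases MMP2 and MMP14, which cut matrix proteins and were chosen after their values were seen, rose as well. MMP2 was at 17.2 and 13.5 CPM in hAFE and 105.5 and 142.9 CPM in hPFE (log2 fold change 3.01 ± 0.21, edgeR adjusted p = 0.00105). MMP14 was at 29 and 38 CPM in hAFE and 212.0 and 268.7 CPM in hPFE (log2 fold change 2.84 ± 0.20, edgeR adjusted p = 0.00105). ITGAV, an integrin chain that binds fibronectin, was at 128.1 and 221.9 CPM in hAFE and 618.6 and 523.5 CPM in hPFE (edgeR adjusted p = 0.0123; voom adjusted p = 0.0216).

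Cadherins of epithelia and of mesenchyme both rose in hPFE. Of 14 tested regulators of epithelial-mesenchymal transition and cadherins, 6 were called higher (42.9%, against 4.77% over all genes) and 0 lower. The median was 1.41, and the voom fit called 4 higher and the 4-library fit 1. CDH1, the cadherin of epithelia, was at 125.7 and 99.3 CPM in hAFE and 221.7 and 284.6 CPM in hPFE, and rose by 1.17 ± 0.17 on the log2 scale (edgeR adjusted p = 0.01; voom adjusted p = 0.0182). CDH6 was at 39.4 and 64.7 CPM in hAFE and 759.1 and 388.6 CPM in hPFE (log2 fold change 3.46 ± 0.46, edgeR adjusted p = 0.00744), and CDH11, a mesenchymal cadherin, at 28.3 and 36.1 CPM against 184.5 and 86.9 CPM (edgeR adjusted p = 0.0241). GRHL3, a factor of surface epithelia, was at 1.32 and 1.83 CPM in hAFE and 18.2 and 17.0 CPM in hPFE (log2 fold change 3.48 ± 0.32, edgeR adjusted p = 0.0039; 4-library edgeR adjusted p = 0.0446). SNAI2, which represses epithelial genes, was at 0.925 and 0.366 CPM in hAFE and 4.74 and 14.1 CPM in hPFE (edgeR adjusted p = 0.0182; voom adjusted p = 0.0599). CDH2, at 362.9 and 352.8 CPM against 317.4 and 420.0 CPM, overlapped between the stages. Among 15 tight junction genes 2 were called higher (13.3%, against 4.77% over all genes) and 0 lower. CLDN4 was at 21.6 and 38.2 CPM against 109.4 and 106.7 CPM (edgeR adjusted p = 0.0217). CLDN1 was at 1.26 and 4.39 CPM against 11.2 and 35.9 CPM (edgeR adjusted p = 0.0374, voom adjusted p = 0.0926). The tight junction count was 0 in the 4-library fit and without either hESC library, 1 without either hDE library or hAFE replicate 1, and 1 higher with 2 lower without hPFE replicate 2.

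**Figure D4:**
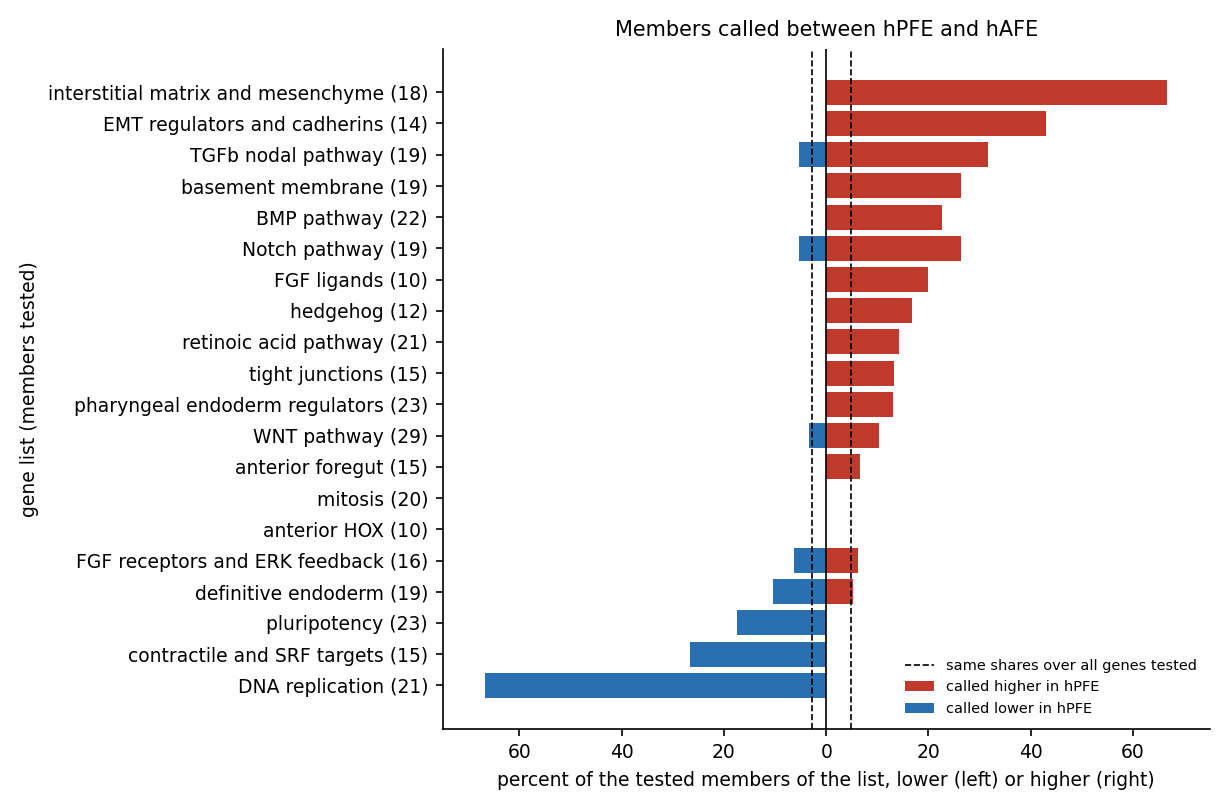
Percent of the tested members of 20 gene lists that were called higher (right) or lower (left) in hPFE by edgeR over 8 libraries; dashed lines mark 4.77% and 2.71%, the shares over all 17446 genes. Matrix genes (12 of 18 higher) and DNA replication genes (14 of 21 lower) lie at the ends.

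The 10 largest rises that met the conditions on replicates included TGM2, PMEPA1, CALHM5, EMP1, ANXA1, BMPER, S100A10, RASGRP1 and GPC4. These were taken from 432 called genes whose stages did not overlap and whose replicates lay within 2 fold on CPM + 0.5, at 10 CPM or more in hPFE. On CPM alone the hAFE replicates of TGM2, S100A10, ANXA1 and GPC4 lay further apart than that. TGM2, transglutaminase 2, which cross-links fibronectin and other proteins, was at 0.463 and 0.0731 CPM in hAFE and at 104.6 and 165.4 CPM in hPFE. That is 8 counts against 4015, and the log2 fold change was 8.89 ± 0.52 (edgeR adjusted p = 0.00048; 4-library edgeR adjusted p = 0.0324). PMEPA1, an inhibitor of TGF beta signalling and one of its targets, was at 0.198 and 0.219 CPM in hAFE and 15.6 and 18.8 CPM in hPFE (log2 fold change 6.31 ± 0.30, edgeR adjusted p = 0.000271). RASGRP1, an activator of RAS proteins, was at 2.51 and 2.92 CPM in hAFE and 49.6 and 60.8 CPM in hPFE (log2 fold change 4.34 ± 0.22, edgeR adjusted p = 0.000271). ANXA1, a membrane-binding annexin, was at 11.2 and 5.41 CPM against 192.6 and 291.5 CPM, and S100A10, a partner of another annexin, at 1.98 and 0.877 CPM against 28.5 and 39.9 CPM. BMPER, which binds BMPs, was at 1.52 and 0.804 CPM in hAFE and 25.7 and 38.0 CPM in hPFE, and GPC4, a cell surface proteoglycan, at 4.43 and 9.07 CPM against 94.9 and 124.8 CPM. EMP1 and CALHM5, both membrane proteins, were below 0.5 CPM in both hAFE libraries and between 11.3 and 23.3 CPM in hPFE. All 9 of these named rises were called in all 19 alternatives.

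A pair of secreted proteins outside that rule, chosen after their values were seen, rose from near 0. SPP1, osteopontin, was at 0.727 and 0 CPM in hAFE and 137.0 and 251.4 CPM in hPFE (log2 fold change 8.97 ± 0.73, edgeR adjusted p = 0.00153), with 11 counts against 5740. IL11, a cytokine, had 3 counts in hAFE and was at 7.77 and 5.48 CPM in hPFE, a ratio of 64.6 with a 95% counting interval of 21.8 to 315.8.

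The largest falls under the same conditions, from 366 genes, were AL356488.2, ACTA1, PTPN5, CAPN13, ONECUT2, NR6A1, SLC1A2, VIL1, TEX15 and DLL1. ACTA1, skeletal muscle actin, was at 135.1 and 106.2 CPM in hAFE and at 3.22 and 5.41 CPM in hPFE, and fell by 4.81 ± 0.45 on the log2 scale (edgeR adjusted p = 0.00257; 4-library edgeR adjusted p = 0.0324). PTPN5, a tyrosine phosphatase, was at 30.1 and 40.5 CPM against 1.34 and 1.23 CPM, and CAPN13, a calpain protease, at 40.8 and 54.8 CPM against 1.76 and 3.61 CPM. ONECUT2, a transcription factor of liver, pancreas and neurons, was at 15.4 and 29.4 CPM in hAFE and 1.21 and 2.24 CPM in hPFE, and VIL1, the villin of intestinal microvilli, at 29.9 and 15.9 CPM against 2.67 and 2.67 CPM. SLC1A2, a glutamate transporter, was at 33.6 and 42.3 CPM in hAFE and 4.49 and 4.26 CPM in hPFE, and TEX15, a gene of the germ line, at 49.1 and 70.2 CPM against 5.52 and 10.5 CPM. AL356488.2 was at 14.9 and 12.8 CPM in hAFE and had 0 counts in hPFE, at least 140.4-fold lower against the floor of 3 counts over the 2 hPFE libraries. Its count is uncertain, since the deposited posterior standard deviation reached 0.842 of the count.

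DNA replication genes were lower in hPFE by small amounts, at most 1.09 on the log2 scale in ORC1. Of 21 tested members 14 were called lower (66.7%, against 2.71% over all genes) and 0 higher, with a median of -0.74. Both hPFE libraries lay below both hAFE libraries for 20 of 21, against 26.6% of all genes. The same held for 27 of 30 ribosomal protein genes, of which 0 were called, with a median of -0.39. MCM2 and MCM5, subunits of the replicative helicase, were at 229.2 and 210.5 CPM and at 126.2 and 126.0 CPM in hAFE. In hPFE MCM2 was at 123.1 and 109.5 CPM and MCM5 at 68.2 and 60.6 CPM (edgeR adjusted p = 0.00858 and 0.00815). ORC1, which marks replication origins, was at 60.1 and 56.5 CPM in hAFE and 25.9 and 28.8 CPM in hPFE, and fell by 1.09 ± 0.13 on the log2 scale (edgeR adjusted p = 0.00548). PCNA, the sliding clamp, was at 173.7 and 180.0 CPM against 131.2 and 160.5 CPM and did not pass. The number of calls was 3 in the voom fit and 0 both in the 4-library fit and with limma on log2(TPM + 1), where the median was -0.36. It was 5 without hESC replicate 1, hESC replicate 2 or hDE replicate 1, 3 without hDE replicate 2, and 7 without hAFE replicate 1.

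Of 20 tested genes of mitosis, 0 were called by edgeR over 8 libraries, by voom, by DESeq2 or by the 4-library fit, and 0 had an unadjusted edgeR p under 0.05; the median was -0.15. Without hPFE replicate 1, 2 were called lower. TOP2A was at 456.2 and 457.0 CPM in hAFE and 506.9 and 316.7 CPM in hPFE, and CENPF at 607.5 and 593.0 CPM against 618.0 and 418.2 CPM. The difference between the 2 lists was not tested. CDK6, a kinase of the G1 phase chosen after its values were seen, was at 101.4 and 104.2 CPM in hAFE and 363.3 and 448.4 CPM in hPFE (log2 fold change 1.98 ± 0.18, edgeR adjusted p = 0.00233; 4-library edgeR adjusted p = 0.0446). CCND1, its cyclin partner and chosen in the same way, was at 246.1 and 152.7 CPM in hAFE and 438.1 and 402.1 CPM in hPFE (edgeR adjusted p = 0.0291; voom adjusted p = 0.0451).

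Among contractile genes and targets of SRF, 4 of 15 tested were called lower and 0 higher, with a median of -0.61. That is 26.7% lower, against 2.71% over all genes, and the voom fit called 1. SRF itself was at 123.8 and 58.4 CPM in hAFE and 35.6 and 35.4 CPM in hPFE (edgeR adjusted p = 0.0373; voom adjusted p = 0.107), and TPM2, a tropomyosin, at 185.2 and 139.9 CPM against 81.1 and 39.2 CPM (edgeR adjusted p = 0.0355; voom adjusted p = 0.0387). TPM1, at 1016.0 and 825.9 CPM against 1005.0 and 836.9 CPM, overlapped. The 4 calls became 0 without any single hESC or hDE library, 1 without hAFE replicate 1 or hPFE replicate 2, and 2 without hPFE replicate 1. In the definitive endoderm list, 1 of 19 tested members was called higher and 2 lower; 5 were called lower without hAFE replicate 1, and 0 higher without either hDE library. With all 8 libraries the shares of this list were 5.26% higher and 10.5% lower, against 4.77% and 2.71% over all genes. KIT, a receptor of definitive endoderm, was at 47.7 and 39.9 CPM in hAFE and 12.8 and 17.2 CPM in hPFE. It fell by 1.55 ± 0.18 on the log2 scale (edgeR adjusted p = 0.00426, voom adjusted p = 0.0136). CER1, a secreted nodal and BMP antagonist, was at 1.85 and 3.66 CPM in hAFE and 21.1 and 9.74 CPM in hPFE, far below its hDE values of 7219.0 and 7995.0 CPM (edgeR adjusted p = 0.0212; voom adjusted p = 0.0613).

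Of the pluripotency list, 4 of 23 tested members were called lower and 0 higher, with a median of -0.86. They were LIN28A, TRIM71, SALL4 and TERT, 17.4% of the members tested, against 2.71% over all genes. The 4-library fit called 0, and without hPFE replicate 2, 3 were called higher and 3 lower. LIN28A, an RNA-binding protein that blocks maturation of let-7 miRNAs, was at 993.0 and 1265.0 CPM in hAFE and at 117.3 and 203.4 CPM in hPFE. In hESC and hDE it was between 1393.0 and 1545.0 CPM, so both hPFE libraries lay below all 6 others. LIN28A fell by 2.82 ± 0.27 on the log2 scale (edgeR adjusted p = 0.00285; voom adjusted p = 0.00178; 4-library edgeR adjusted p = 0.0641). TRIM71, a ubiquitin ligase and RNA-binding repressor, was at 275.0 and 320.6 CPM in hAFE and 64.8 and 101.6 CPM in hPFE (log2 fold change -1.84 ± 0.22, edgeR adjusted p = 0.00548). SALL4, a zinc finger factor, was at 163.5 and 131.4 CPM in hAFE and 46.6 and 48.8 CPM in hPFE (log2 fold change -1.63 ± 0.15, edgeR adjusted p = 0.00213). TERT, the telomerase catalytic subunit, was at 5.15 and 2.92 CPM against 1.15 and 0.794 CPM (edgeR adjusted p = 0.0261; voom adjusted p = 0.137).

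NR6A1, an orphan nuclear receptor of the early embryo and one of the 10 largest falls, was at 370.5 and 315.5 CPM in hAFE and 29.3 and 35.4 CPM in hPFE. It fell by 3.41 ± 0.18 on the log2 scale (edgeR adjusted p = 0.000271; voom adjusted p = 0.000426; 4-library edgeR adjusted p = 0.0303) and was called in all 19 alternatives. IGF2BP1, a messenger-binding protein chosen after its values were seen, was at 684.5 and 578.0 CPM in hAFE and 367.4 and 395.3 CPM in hPFE (edgeR adjusted p = 0.0261; voom adjusted p = 0.0564). LIN28B, the second LIN28 gene, was at 177.8 and 139.2 CPM against 124.8 and 101.1 CPM and did not pass (edgeR adjusted p = 0.122).

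Transcripts that host miRNAs were looked at next, because LIN28A acts on let-7; the set was chosen after values were seen. Of 26 tested genes named as miRNA hosts, 6 were called higher and 1 lower, where the shares over all genes were 4.77% and 2.71%. The 1 lower call is a share near that over all genes. The set was not counted under the other fits. MIR100HG spans chromosome 11, 122028327 to 122556721 on the minus strand, and holds the hairpins of miR-125b-1, let-7a-2 and miR-100. It was at 0.33 and 1.32 CPM in hAFE and at 46.1 and 22.9 CPM in hPFE, above all other libraries, and rose by 5.4 ± 0.61 on the log2 scale (edgeR adjusted p = 0.00426; voom adjusted p = 0.0136; 4-library edgeR adjusted p = 0.0666). MIR181A1HG, at chromosome 1, 198807493 to 198937429 on the minus strand, holds miR-181a-1 and miR-181b-1. It had 3 counts in hAFE and was at 7.77 and 12.1 CPM in hPFE, a ratio of 93.7 with a 95% counting interval of 31.8 to 457.0, and was called in all 19 alternatives. MIR181A2HG on chromosome 9, which holds the second copies of both, was at 0.0661 and 0 CPM in hAFE and 1.7 and 1.66 CPM in hPFE (edgeR adjusted p = 0.0298; voom adjusted p = 0.0258).

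The mature miRNAs encoded in these hosts are shown because their seeds, bases 2 to 8 in capitals, are what pairs with messengers. Sequences are from RefSeq on GRCh38.p14. The first 3 lie in MIR100HG and have 3 different seeds, while miR-181a and miR-181b share 1 seed. Mature miRNAs were not measured in these libraries.
let-7a-5p: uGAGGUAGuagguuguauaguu
miR-100-5p: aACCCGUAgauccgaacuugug
miR-125b-5p: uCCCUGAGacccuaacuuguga
miR-181a-5p: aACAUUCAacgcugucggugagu
miR-181b-5p: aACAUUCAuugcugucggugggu

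The 3′ UTRs of LIN28A, TRIM71, NR6A1, SALL4, IGF2BP1, LIN28B and HMGA2 were searched for the reverse complements of those seeds, on the messenger strand. These genes were picked by hand, and the other genes called lower were not counted as a set. Their matches beside the shares of all tested genes are therefore no test of a link between matches and falls. Whether genes called lower hold more matches than others was not tested. The transcripts were those of GENCODE 29 with the best APPRIS rank and then the longest 3′ UTR. The let-7 match CUACCUC occurred 1 time in LIN28A, 6 times in TRIM71, 5 times in NR6A1, 1 time in SALL4 and 4 times in IGF2BP1. It also occurred 4 times each in LIN28B and in HMGA2, a chromatin protein, and neither of these genes passed (edgeR adjusted p = 0.122 and 0.128). The miR-125b match CUCAGGG occurred 1 time in LIN28A and 2 times each in TRIM71 and NR6A1, and 0 times in SALL4 and IGF2BP1. The miR-100 match UACGGGU occurred 1 time each in TRIM71 and NR6A1 and 0 times in LIN28A, SALL4 and IGF2BP1. The miR-181 match UGAAUGU occurred 1 time in LIN28A, 4 in TRIM71, 3 in NR6A1, 3 in SALL4 and 0 in IGF2BP1. At least 1 let-7 match was held by 9.86% of 14271 tested genes with a 3′ UTR and by 19.9% of the 4596 whose 3′ UTR had 1934 bases or more, the length in SALL4. For miR-125b these shares were 15% and 27.6%, for miR-100 1.13% and 2.57%, and for miR-181 20.2% and 41%. The UTRs of TRIM71 (6015 bases), NR6A1 (5430) and LIN28A (3264) are long, and a match is a description of the letters, not a measured site. Examples follow, with the seed match in capitals and its first base counted from the start of the 3′ UTR.
LIN28A, let-7 match from base 905: gcacagccuauugaaCUACCUCa
LIN28A, miR-125b match from base 801: agguacaugagcaauCUCAGGGa
TRIM71, let-7 match from base 172: aacauugcuuaagucCUACCUCa
TRIM71, let-7 match from base 252: agugauaauuucuauCUACCUCa
NR6A1, let-7 match from base 388: uguugacaaagaugaCUACCUCa
SALL4, let-7 match from base 1335: aaagcuuuaauuuauCUACCUCa

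**Figure D5:**
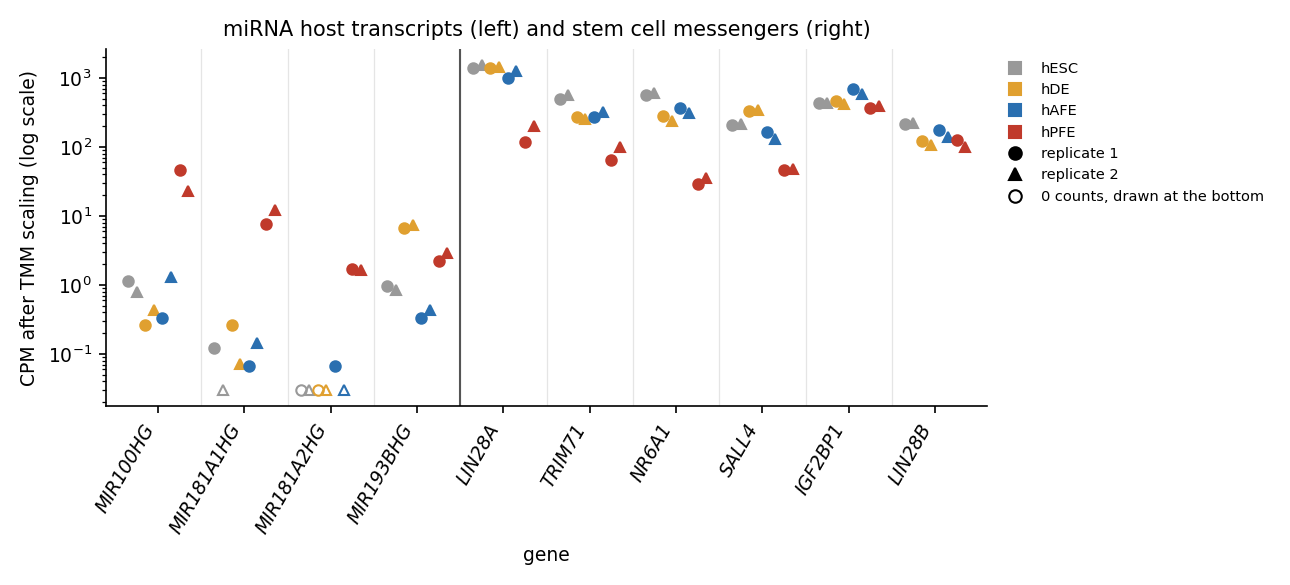
CPM (log axis) of 4 miRNA host transcripts and 6 stem cell messengers in all 8 libraries, one point per library. MIR100HG is at 46.1 and 22.9 CPM in hPFE and at most 1.32 CPM elsewhere, and LIN28A is at 117.3 and 203.4 CPM in hPFE and at least 993.0 CPM elsewhere.

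The remaining called hosts were MIR193BHG, at 0.33 and 0.439 CPM in hAFE and 2.25 and 2.89 CPM in hPFE, MIR4435-2HG, at 3.11 and 3.29 CPM against 14.1 and 24.5 CPM, and MIR22HG, at 4.16 and 3.51 CPM against 9.29 and 33.0 CPM. MIR193BHG was at 6.68 and 7.39 CPM in hDE. MIR600HG was the one called lower, at 27.3 and 25.4 CPM in hAFE and 12.9 and 13.3 CPM in hPFE (edgeR adjusted p = 0.034; voom adjusted p = 0.128). MIR205HG, at 57.2 and 136.6 CPM against 85.5 and 161.3 CPM, overlapped between the stages.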

How the data were processed

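The deposited tables hold, per the file headers, RSEM gene-level expected counts, TPM values, effective lengths and posterior standard deviations of the counts, made by the authors on hg38, per the submitters' processing notes. Those notes list DESeq2 too. Per the labels' protocols, rRNA-depleted total RNA gave strand-specific paired-end libraries. RSEM divides reads that fit several genes, so close copies are uncertain. The aligner's name is among the items not given in the sources used here. Of 59526 rows, 58780 carried gene identifiers, all matched to GENCODE 29, and the 746 others held 0% of the counts.

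Expected counts were rounded, filtered with filterByExpr and fitted over 8 libraries with edgeR 4.0.16 (R 4.3.3; TMM, 4 stage terms, 4 residual degrees of freedom, Benjamini-Hochberg adjustment over 17446 genes). SE is the absolute log2 fold change divided by the square root of F. The step was also run on simulated data, and the outcome is not reported here. Alternatives used limma 3.58.1, DESeq2 1.42.0, other filters and scalings, and each library left out. A library left alone in its stage is assumed to vary like the others. Counting intervals and floors (3 counts) cover counting error only.

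Named were 12 landmarks, the 10 largest rises and 10 largest falls under the stated conditions, and from each of 20 described lists up to 4 called members per direction and the 2 most highly expressed members without a call. Other named genes were chosen after their values were seen. The comparison, its gene lists and the rules were chosen with earlier results of these data known. Some genes that the rule names are not reported here.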

Additional observations from a re-analysis of the deposited data

How the results depend on the processing

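The number of calls was 1306 (833 higher, 473 lower) and was 3234 (1923 and 1311) without a count filter, 52 (46 and 6) with the 4 libraries alone, 447 (360 and 87) with voom and a weight per stage, 812 (86 lower) with limma on log2(TPM + 1), and 431 (349 and 82) with a minimum of 1.5 fold. Leaving out 1 library gave 479 to 1552 calls, 350 to 1012 of them higher and 121 to 647 lower. Of 91 named genes called, 25 were called under every one of the 19 alternatives, 60 by voom, 26 with the 4 libraries alone and 70 with TPM. HOXA3 reversed without hAFE replicate 1, to a log2 difference of 4.50 (edgeR adjusted p = 0.0423), and was at -1.04 without hAFE replicate 2. The SD between replicates was 0.669 (hAFE) and 0.649 (hPFE) at 1 CPM or more, and 0.511 and 0.517 in TPM.

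The differences between replicates were nearly uncorrelated between hAFE and hPFE (r = 0.057 over 9610 genes). This cannot tell whether same-numbered libraries were grown or handled together, since a shared effect can be small beside other variation. With the replicate block there were 1072 calls (706 higher, 366 lower), and 81 of the 91 named calls were made. The 4-library fit had 2653 genes at an unadjusted p under 0.05 and 52 after adjustment. A count of 0 in both libraries of a stage allows up to 0.104 CPM in hAFE and 0.0989 CPM in hPFE, which limits the ratios of genes near 0.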

Other observations

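Of 15 p53 target genes, 4 were called higher in hPFE and 1 lower, with a median log2 difference of 0.58 against -0.03 over all genes. These shares were 26.7% and 6.67%, against 4.77% and 2.71% over all genes. The voom fit called 1 higher and the 4-library fit 0. The list summed to 824.8 and 860.9 CPM in hAFE and 1090.0 and 2468.0 CPM in hPFE, so most of the rise in the sum lay in hPFE replicate 2. CDKN1A, an inhibitor of the cell cycle, was at 34.4 and 49.5 CPM in hAFE and 126.9 and 284.8 CPM in hPFE, and rose by 2.29 ± 0.38 on the log2 scale (edgeR adjusted p = 0.0154; voom adjusted p = 0.0188). GDF15, a secreted stress protein, was at 1.19 and 0.877 CPM against 6.5 and 6.06 CPM. Of 17 genes of antigen presentation and interferon response, 5 were called higher (29.4%) and 0 lower. The voom fit called 2 of this list higher and the 4-library fit 0. B2M, the light chain of MHC class I, was at 34.0 and 26.4 CPM in hAFE and 93.3 and 64.7 CPM in hPFE (edgeR adjusted p = 0.01; voom adjusted p = 0.0188), and HLA-E, a class I heavy chain, at 11.6 and 9.73 CPM against 31.0 and 25.3 CPM. These genes were chosen after their values were seen.

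Among 22 guidance ligands and receptors, 5 were called higher (22.7%, against 4.77% over all genes) and 0 lower. The voom fit called 3 of this list higher and the 4-library fit 0. NTN1, a secreted netrin, was at 7.53 and 3.22 CPM in hAFE and 31.3 and 26.8 CPM in hPFE (edgeR adjusted p = 0.0123; voom adjusted p = 0.0307). SEMA3C, a secreted semaphorin, was at 53.6 and 6.36 CPM in hAFE and 648.2 and 314.9 CPM in hPFE (edgeR adjusted p = 0.033; voom adjusted p = 0.0208). IGFBP7, a secreted binding protein, was at 0.0661 and 0.512 CPM in hAFE and 107.1 and 22.2 CPM in hPFE. KRT7, a keratin of simple epithelia, was at 3.24 and 1.75 CPM in hAFE and 12.4 and 161.8 CPM in hPFE, so the hPFE libraries were far apart for both genes. DIO2, an enzyme that activates thyroid hormone, was at 0.264 and 0.731 CPM in hAFE and 11.5 and 6.35 CPM in hPFE (edgeR adjusted p = 0.00921; voom adjusted p = 0.0227).

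RN7SL1, a 7SL RNA gene, had 0 counts in both hAFE libraries and was at 18367.0 and 18307.0 CPM in hPFE. Its near-identical copy RN7SL2 was at 37185.0 and 47933.0 CPM in hAFE and 50811.0 and 16668.0 CPM in hPFE, and hESC replicate 1 also held RN7SL1 at 0. Reads can be divided between these copies, so the values of either are uncertain.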
